A study of Mus musculus with 6 samples.

Results

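The Notch genes described here are the 4 receptors Notch1 to Notch4, the ligands Jag1 and Jag2, and the target genes Hes1, Hey1, Hey2 and Heyl. They were chosen by name, as the 10 rows of the deposited count table that carry these symbols, out of 25239 rows in all. The ovaries came from C57BL/6 mice, at E18.5, late in gestation, and were taken apart with Liberase and DNase. RNA-seq was made of 3 libraries with the genotype WT and 3 with the genotype Hnrnpl-null. Hnrnpl encodes an RNA-binding protein that regulates splicing, and the study asked about its role in germ cells and primordial follicles. The titles of the Hnrnpl-null libraries use the abbreviation CKO. Neither the removed exons, nor the cells or the Cre involved, nor any engineered allele of the WT ovaries is named in the labels. Whether the libraries of a group are from different animals is also not stated, and p-values then measure only the spread among these libraries, which may be technical.

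Notch receptors are membrane proteins that are cut when a Jagged or Delta-like ligand on a neighbouring cell binds them. The released intracellular part enters the nucleus, joins the DNA-binding protein RBPJ and activates genes such as those of the Hes and Hey families, which encode transcriptional repressors. In the perinatal ovary, germ cell cysts break apart and single oocytes become enclosed by pregranulosa cells to form primordial follicles. Jag1 is known as a ligand made by oocytes and Notch2 as a receptor of pregranulosa cells.

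The libraries differed in ways that bear on every value below. Total counts ran from 8949781 to 22401419. Ribosomal precursor RNA (Rn45s) made up 83.0% of WT replicate 1 and 86.1% of Hnrnpl-null replicate 3, and these stood apart from the remaining 4, which had 18.6% to 36.0%. What was left outside Rn45s was smallest in Hnrnpl-null replicate 3, at 1757572 counts, so that 1 read pair (2 counts) there equalled 0.625 CPM, the unit explained below. Hnrnpl itself was at 162 ± 14.8 CPM in the WT and 184 ± 25.5 CPM in the Hnrnpl-null group (SD, n = 3 each). A count over the whole gene can stay high when only some exons are removed, so it does not check the labels, and Hnrnpl-null below means the libraries labelled so. Oocyte is the labelled cell type, but somatic markers were abundant. In WT, Col1a1, a collagen of stromal cells, stood at 2792 ± 115 CPM and Wt1, a factor of pregranulosa and surface cells, at 211 ± 14.0, against 22.6 ± 2.66 for the germ cell marker Ddx4. The values are therefore described as those of mixed ovarian cells.

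Levels are in CPM, counts scaled to a common library size with factors from the trimmed mean of M values (TMM), and different genes are compared only as CPM per kilobase of exon. In WT ovaries Hes1 and Notch2 had the highest levels per kilobase of the 10 genes, at 25.9 ± 2.69 and 23.7 ± 0.455 CPM per kb (SD, n = 3), and their ranges overlapped. Jag2 followed at 12.1 ± 1.91, Notch3 at 6.87 ± 0.863 and Notch1 at 3.99 ± 0.704 CPM per kb, each apart from its neighbours in this order. Hey1, Jag1 and Heyl came next at 2.38 ± 0.560, 2.08 ± 0.742 and 1.49 ± 0.318 CPM per kb, and each overlapped the next. Notch4 stood at 0.891 ± 0.275 and Hey2 at 0.211 ± 0.213 CPM per kb. In Hnrnpl-null ovaries the order of levels per kilobase was Notch2, Hes1, Notch3, Jag2, Notch1, Hey1, Jag1, Notch4, Heyl and Hey2. There Jag2 overlapped Notch1, Notch1 overlapped Hey1 and Notch4 overlapped Heyl, while the other neighbours were apart. Hes1, Jag2 and Heyl each stood 1 place lower in this order than in WT.

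**Figure D1:**
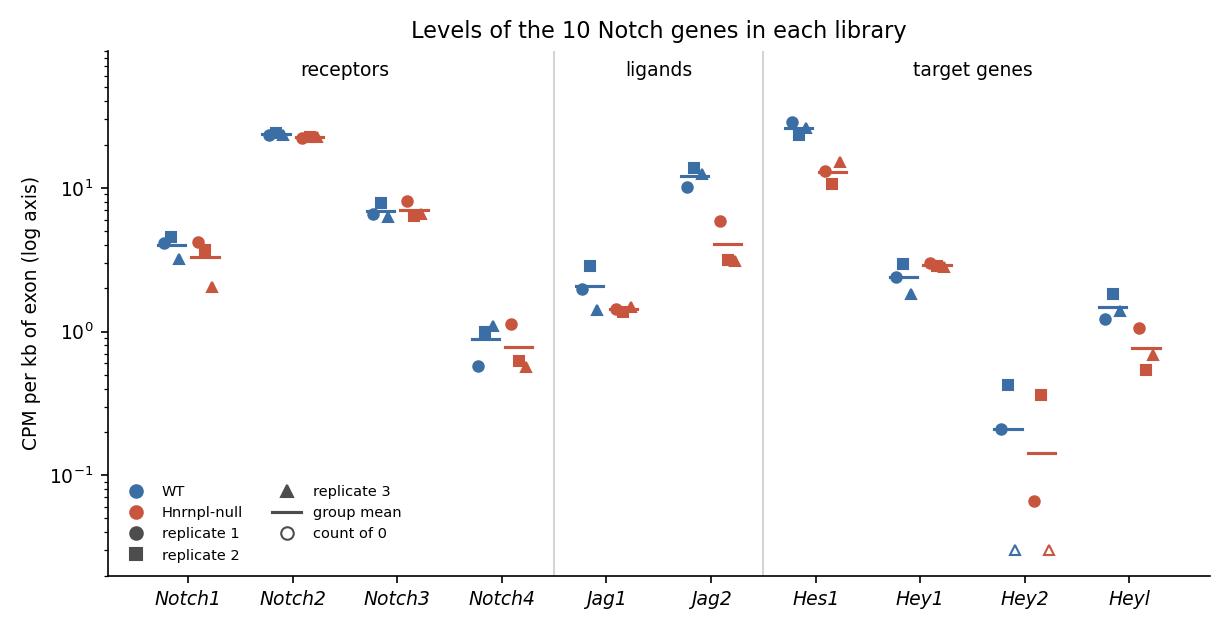
Levels of the 10 Notch genes, in CPM per kilobase of exon on a log axis, with 1 point per library (WT blue, Hnrnpl-null red), the replicate number as the shape and the group mean as a line; open points mark a count of 0. Jag2 and Hes1 are lower in the 3 Hnrnpl-null libraries than in the 3 WT libraries, and Notch2 lies between 22.3 and 24.2 CPM per kb in all 6.

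The genotypes were compared to ask how Notch genes differ between ovaries labelled Hnrnpl-null and WT. Jag2 and Hes1 fell in the Hnrnpl-null libraries, while none of the 4 receptors passed the test. Jag2 stood at 34.4% of WT and Hes1 at 49.0% of WT. Of the 10 genes, 9 had enough counts to be tested, 2 were lower, 0 were higher and 7 were not called by the edgeR quasi-likelihood test at a Benjamini-Hochberg adjusted p below 0.05. Over all 14849 genes tested, 4.46% were called, 1.79% lower and 2.67% higher. An unadjusted edgeR p below 0.05 was held by 2746 of the 14849, the background for such counts given below. The 9 tested genes had a median log2 fold change of -0.23, and all tested genes together had -0.01. In 4 of the 9 (Notch2, Jag2, Hes1 and Heyl) every Hnrnpl-null library was below every WT library, a pattern held by 13.2% of all tested genes. Without both libraries richest in Rn45s the same 2 genes, Jag2 and Hes1, were called. In bulk RNA of this kind, fewer cells of a type and less RNA per cell cannot be told apart.

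Among the receptors, Notch2 held most of the receptor RNA. Per kilobase it made up 64.3% to 69.1% of the summed level of the 4 receptors in WT and 62.4% to 71.0% in Hnrnpl-null. Notch2 (chromosome 3, 98013538 to 98150367, mm10, plus strand) was at 246, 255 and 247 CPM in WT replicates 1 to 3 and at 234, 237 and 236 CPM in the same order in Hnrnpl-null. The groups did not overlap, but they were close, with means of 249 ± 4.78 and 236 ± 1.14 CPM (SD, n = 3). The log2 fold change was -0.08 ± 0.11 (SE), with an edgeR adjusted p of 0.76. Its 95% interval placed the Hnrnpl-null level between 80.6% and 111% of WT, so a change of the size seen for Jag2 or Hes1 lies outside it.

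The other receptors overlapped between the groups. Notch1 (chromosome 2, 26457902 to 26503822), the receptor best known from T cells and vessels, was at 39.5, 43.5 and 30.5 CPM in WT and 39.6, 34.9 and 19.4 CPM in Hnrnpl-null. The lowest value was that of Hnrnpl-null replicate 3, and without it the log2 fold change went from -0.23 to -0.02. Notch3 (chromosome 17, 32120820 to 32166890), a receptor of pericytes and smooth muscle, was at 52.7, 63.2 and 50.1 CPM in WT and 65.5, 51.6 and 53.1 CPM in Hnrnpl-null. Its 95% interval ran from 84.0% to 126% of WT. Notch4 (chromosome 17, 34564295 to 34588543), a receptor of endothelium, was at 3.82, 6.59 and 7.24 CPM in WT and 7.50, 4.15 and 3.75 CPM in Hnrnpl-null. At that depth its 95% interval was wide, from 54.1% to 148% of WT. The edgeR adjusted p was 0.62 for Notch1, 0.91 for Notch3 and 0.85 for Notch4. All 3 tools (edgeR, DESeq2 and limma-voom) gave 0 calls among the 4 receptors, and 0 receptors had an unadjusted edgeR p below 0.05.

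Because the receptors are close relatives, reads could in principle be split among them. The longest exact stretch that any pair of receptors shares in its coding sequence was 25 bases, between Notch1 and Notch2, in GENCODE M21. That stretch is shown in capitals with 20 coding bases on either side, 5′ to 3′, because it is the closest match among the 10 genes within each of the 3 roles.
Notch1, coding bases 655 to 719: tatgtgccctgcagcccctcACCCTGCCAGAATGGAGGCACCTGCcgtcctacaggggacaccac
Notch2, coding bases 3562 to 3626: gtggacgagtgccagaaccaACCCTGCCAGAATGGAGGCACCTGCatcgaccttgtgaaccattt
Over the 65 bases shown, 34 are the same in both. The read length is not given in the sources used here. Exons of Notch1 also overlap those of 0610009E02Rik on the other strand, a row with 52 counts in all against 3708 for Notch1.

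Of the ligands, Jag2 was lower in every Hnrnpl-null library and Jag1 was not called. Jag2 (chromosome 12, 112908590 to 112929495, minus strand), which encodes the Jagged2 ligand, was at 40.8, 56.2 and 50.4 CPM in WT replicates 1 to 3. In Hnrnpl-null replicates 1 to 3 it was at 23.9, 12.8 and 12.5 CPM. The groups were well apart, and Hnrnpl-null replicate 1 was the highest of its group. The mean of Jag2 fell from 49.1 ± 7.74 CPM (SD, n = 3) to 16.4 ± 6.49 CPM (n = 3). In log2 terms the change was -1.54 ± 0.22 (SE), and the edgeR adjusted p was 0.0013. The 95% interval placed it between 24.7% and 47.9% of WT. When 1 library was left out the log2 fold change ran from -1.96 to -1.35 and the edgeR adjusted p from 6.8e-05 to 0.014.

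Jag1 (chromosome 2, 137081451 to 137116520, minus strand), the ligand known from oocytes, was lower on average without passing the test. It was at 10.8, 15.8 and 7.72 CPM in WT and at 7.88, 7.54 and 8.12 CPM in Hnrnpl-null. WT replicate 3 lay inside the Hnrnpl-null range, and WT replicate 2 was the highest of all 6. The means were 11.4 ± 4.08 and 7.85 ± 0.295 CPM (SD, n = 3 each), and the log2 fold change was -0.56 ± 0.26 with an edgeR adjusted p of 0.27. Its 95% interval ran from 45.6% to 100.3% of WT. It holds both no change and a fall as large as that of Hes1. Without WT replicate 2 the log2 fold change was -0.23 (edgeR adjusted p = 0.77). A test of the difference between the fold changes of Jag2 and Jag1 was not made. The ratio of Jag2 to Jag1, per kilobase, was 5.12, 4.82 and 8.84 in WT and 4.11, 2.31 and 2.08 in Hnrnpl-null. These ratios did not overlap between the groups, in a design where 3 libraries against 3 cannot give an exact permutation p below 0.10.

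The coding sequences of Jag1 and Jag2 share no exact stretch longer than 21 bases. Their closest stretch is shown in capitals, 5′ to 3′, to show how far reads of the called ligand can be told from those of the ligand that was not called.
Jag1, coding bases 829 to 889: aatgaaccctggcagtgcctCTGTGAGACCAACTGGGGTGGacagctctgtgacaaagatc
Jag2, coding bases 862 to 922: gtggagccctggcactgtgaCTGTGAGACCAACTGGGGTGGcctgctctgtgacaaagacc
Of the 61 bases, 50 are the same in both genes, and the differences fall on both sides of the shared stretch.

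Among the target genes, Hes1 fell and the Hey genes were not called. Hes1 (chromosome 16, 30065357 to 30067796, plus strand) encodes a basic helix-loop-helix repressor and is a classical direct target of Notch. It was at 41.4, 33.6 and 37.9 CPM in WT and at 19.0, 15.5 and 21.9 CPM in Hnrnpl-null, with no overlap. Its mean fell from 37.6 ± 3.90 CPM (SD, n = 3) to 18.8 ± 3.19 CPM (n = 3), which is -1.03 ± 0.16 (SE) in log2, with an edgeR adjusted p of 0.0021. The 95% interval was 38.7% to 62.0% of WT. With 1 library left out the log2 fold change stayed between -1.12 and -0.90 and the edgeR adjusted p between 7.9e-04 and 0.019. Set beside the main receptor per kilobase, the Hes1 level was 122%, 95.5% and 111% of the Notch2 level in WT and 58.6%, 47.4% and 67.0% in Hnrnpl-null.

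Heyl (chromosome 4, 123233556 to 123249870), a relative of Hes1 known from vascular smooth muscle, was at 5.53, 8.33 and 6.34 CPM in WT and at 4.81, 2.44 and 3.12 CPM in Hnrnpl-null. The groups did not overlap, but the counts were low, with 10 in Hnrnpl-null replicate 3. The log2 fold change was -0.95 ± 0.33 with an edgeR adjusted p of 0.14, and limma-voom called it (adjusted p = 0.039). Hey1 (chromosome 3, 8663359 to 8667038), a target gene of endothelium among other cells, was at 5.27, 6.47 and 4.0 CPM in WT and at 6.58, 6.28 and 6.25 CPM in Hnrnpl-null. Its log2 fold change was 0.28 ± 0.28 (edgeR adjusted p = 0.65), and its 95% interval of 80.0% to 183% of WT does not reach down to the level of Hes1, at 49.0%. Hey2 (chromosome 10, 30832359 to 30842783), known from artery and heart, had 4, 26 and 0 counts in WT and 4, 24 and 0 in Hnrnpl-null. It did not pass the filter on low counts, and a difference was not detectable at this depth. Within the 4 target genes, Hes1 made up 81.7% to 89.1% of the summed level per kilobase in WT and 74.0% to 81.1% in Hnrnpl-null. The share of Hey1 went from 6.18% to 10.3% in WT to 15.2% to 19.7% in Hnrnpl-null, while the level of Hey1 itself overlapped between the groups. The longest exact stretch shared by coding sequences of 2 target genes was 17 bases.

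**Figure D2:**
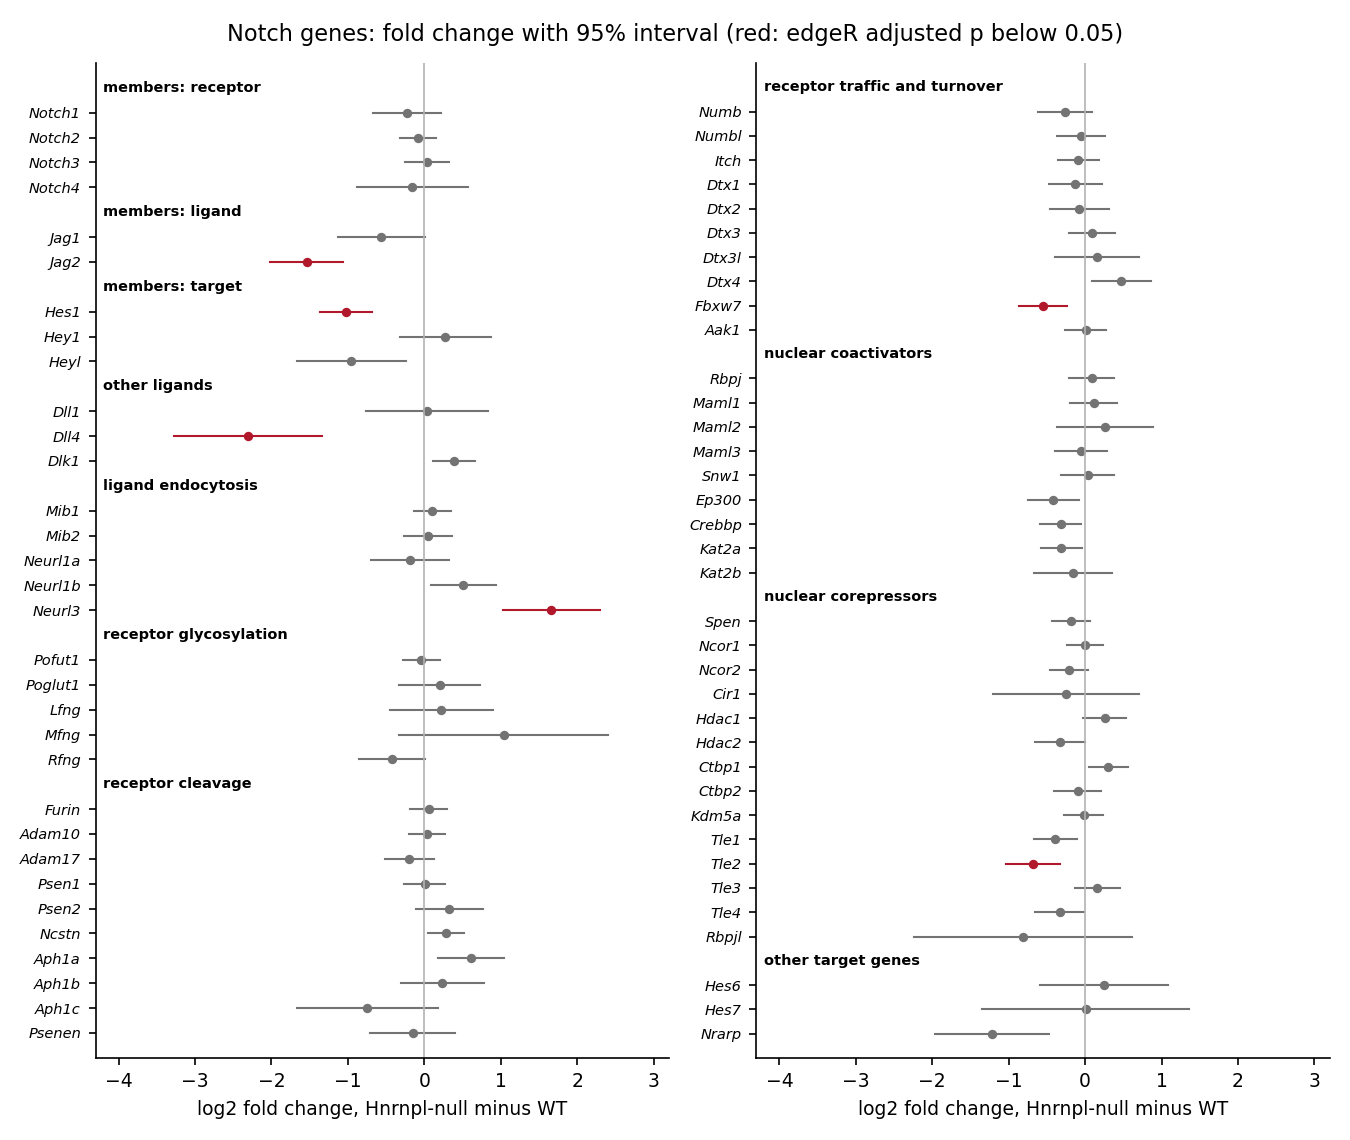
Log2 fold change (Hnrnpl-null minus WT) of each tested Notch gene with its 95% interval, grouped by role, with the 10-gene set at the top left and other pathway genes below and at right; red marks an edgeR adjusted p below 0.05. Jag2, Hes1, Dll4, Fbxw7 and Tle2 lie below 0 in red, and Neurl3 lies above 0 in red at 1.66.

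Beyond these genes, 65 other genes of the pathway were listed by role, and 59 had enough counts to be tested. Of the 59, 3 were lower, 1 was higher and 55 were not called by edgeR, and their median log2 fold change was -0.004. Calls made up 4 of 59, against the 4.46% of all tested genes given above. The count was 2 without WT replicate 1 and 1 without WT replicate 2 or Hnrnpl-null replicate 2, when Neurl3 alone was called. Without both libraries richest in Rn45s the 4 called were Dll4, Neurl3, Nrarp and Rbpjl. DESeq2 called 6 and limma-voom called 8.

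The other ligands again included a fall. Dll4 (chromosome 2, 119325784 to 119335666, plus strand), the Delta-like ligand of sprouting vessels, was at 7.64, 9.20 and 6.06 CPM in WT and at 2.11, 1.52 and 0 CPM in Hnrnpl-null. It fell by 2.30 ± 0.45 on the log2 scale (edgeR adjusted p = 0.011), on 368 counts over the WT libraries and 90 over the Hnrnpl-null libraries. The edgeR adjusted p was 0.092 without WT replicate 2 and 0.062 without Hnrnpl-null replicate 2. Its exons overlap those of Gm14207 on the other strand, which had 24 counts in all. Dll1 stood at 3.74 ± 0.695 CPM in the WT group against 3.96 ± 1.19 CPM and did not pass the test. Dlk1, a related membrane protein outside the canonical ligands, was at 233 ± 22.0 and 307 ± 34.8 CPM, with groups that did not overlap, and was not called by edgeR (adjusted p = 0.11), though DESeq2 and limma-voom called it. Over Jag1, Jag2, Dll1, Dll3 and Dll4 together, Jag2 made up 65.1% to 73.5% of the ligand level per kilobase in WT and 51.2% to 63.9% in Hnrnpl-null.

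Of the 5 genes listed under ligand endocytosis 1 was called. Neurl3, listed there as a relative of the Neuralized ubiquitin ligases, rose from 3.03 ± 0.783 CPM to 10.2 ± 2.31 CPM, or by 1.66 ± 0.29 in log2 (edgeR adjusted p = 0.0058). Whether Neurl3 acts on Notch ligands in these ovaries was not tested. Mib1, the ubiquitin ligase that drives ligand endocytosis, was at 168 ± 1.80 and 180 ± 15.0 CPM and Mib2 at 39.1 ± 6.10 and 40.6 ± 5.49 CPM, and neither was called. The 5 genes of receptor glycosylation held 0 calls by edgeR, DESeq2 and limma-voom and 0 unadjusted edgeR p-values below 0.05. Pofut1, the protein O-fucosyltransferase of Notch, was at 58.8 ± 3.09 and 57.2 ± 4.13 CPM, and Rfng, a Fringe enzyme, was at 13.1 ± 1.47 and 9.99 ± 1.27 CPM. The 10 genes of receptor cleavage held 0 calls by any of the 3 tools, with 2 at an unadjusted edgeR p below 0.05. Adam10, the protease of the ligand-dependent cut, was at 106 ± 7.21 and 108 ± 6.94 CPM, and Furin, the protease that matures the receptor, was at 109 ± 11.2 and 113 ± 4.40 CPM.

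Of 10 genes of receptor traffic and turnover, Fbxw7 was called. Fbxw7, the ubiquitin ligase subunit that marks the cleaved receptor for decay, fell from 25.5 ± 1.60 to 17.4 ± 0.902 CPM (log2 fold change -0.56 ± 0.15, edgeR adjusted p = 0.047). Fbxw7 was no longer called when any library but Hnrnpl-null replicate 3 was left out (edgeR adjusted p between 0.11 and 0.18) or when both libraries richest in Rn45s were (0.063). Numbl and Dtx3, a Numb relative and a Deltex relative, overlapped between the groups, with WT means of 26.2 ± 0.860 and 47.2 ± 3.93 CPM and Hnrnpl-null means of 25.1 ± 3.23 and 50.7 ± 8.26 CPM. In the nucleus, 0 of 9 coactivator genes were called by any of the 3 tools, with 3 at an unadjusted edgeR p below 0.05. Rbpj, named here outside the rule as the DNA-binding partner of Notch, was at 30.2 ± 3.92 and 32.0 ± 1.24 CPM. The acetyltransferases Crebbp and Kat2a were at 167 ± 14.0 and 48.2 ± 5.94 CPM in WT and at 133 ± 16.1 and 39.0 ± 0.193 CPM in Hnrnpl-null. Of 14 corepressor genes, Tle2, a Groucho relative that Hes proteins recruit, fell from 42.6 ± 5.96 to 26.3 ± 5.08 CPM (log2 fold change -0.68 ± 0.16, edgeR adjusted p = 0.031). Leaving out WT replicate 1, WT replicate 2 or Hnrnpl-null replicate 2 ended its call (edgeR adjusted p between 0.090 and 0.15), as did leaving out both libraries richest in Rn45s (0.061). Hdac2, a histone deacetylase, had means of 53.0 ± 3.57 and 41.5 ± 9.95 CPM. Ctbp1 had means of 90.6 ± 7.87 and 112 ± 12.4 CPM, and neither passed the test.

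Of the 6 other target genes, 3 were tested and 0 were called by edgeR, while 1 had an unadjusted p below 0.05 and DESeq2 and limma-voom each called 1. That gene was Nrarp (chromosome 2, 25180758 to 25183332), a target that feeds back on the Notch complex. It was at 4.74, 6.88 and 6.20 CPM in WT and at 2.95, 2.82 and 1.25 CPM in Hnrnpl-null, with no overlap. Its log2 fold change was -1.21 ± 0.35, with an edgeR adjusted p of 0.067, and without both libraries richest in Rn45s it was called (-1.18, adjusted p = 0.035). Hes6 overlapped between the groups (6.12 ± 3.17 and 7.97 ± 3.34 CPM).

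Promoters were taken from a set of RefSeq promoter sequences on GRCm38.p6, which had an entry for 7 of the 10 genes. Hes1, Hey1 and Heyl had no entry in that set and were not searched. The 250 bases before each start were searched on both strands for TGGGAA, the core that RBPJ binds, and for CACGTG, an E box of the kind bound by basic helix-loop-helix factors. Of all 32851 windows of that length, 21.6% held TGGGAA and 6.02% held CACGTG. Annotated GENCODE M21 exons, on either strand, overlapped the windows of all the members searched but Notch3. The window of Notch3 overlapped the RefSeq span of its own gene. The RBPJ core was found in the window of 1 of the 7 genes searched, Hey2. The match is shown in capitals, on the strand read by the gene, in 30 bases at chr10:30842973-30843002 (minus strand), and it reads TTCCCA because the core lies on the opposite strand, 207 to 202 bases before the start.
Hey2: tgcgcggtggcaTTCCCAcgcctctgccaa
Among the other pathway genes, 16 of the 53 searched held the core in at least 1 window, some of them having more than 1 window. That count is per gene and cannot be set against the 21.6% of single windows. Nrarp, not among those 16, is shown as a target gene whose groups did not overlap. Its 250 bases, chr2:25180508-25180757 on the plus strand, did not hold the RBPJ core and held 1 E box (capitals), 108 to 103 bases before the start.
Nrarp: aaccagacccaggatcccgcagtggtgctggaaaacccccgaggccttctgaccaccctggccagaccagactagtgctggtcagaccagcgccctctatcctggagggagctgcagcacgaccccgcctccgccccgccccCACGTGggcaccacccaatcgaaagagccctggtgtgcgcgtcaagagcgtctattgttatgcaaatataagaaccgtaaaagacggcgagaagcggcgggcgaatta
A match of letters is a description and not a site.

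Cell type markers moved with the genotype in several directions. The summed level of 13 oocyte markers was 354 to 377 CPM in WT and 188 to 209 CPM in Hnrnpl-null, 55.0% of WT. Of the 12 oocyte markers tested, 10 were lower by edgeR, with a median log2 fold change of -1.35. Nobox, an oocyte homeobox factor, fell from 20.8 ± 2.7 to 2.25 ± 0.347 CPM, whereas Kit, which oocytes share with other cells, was at 97.0 ± 4.93 and 88.7 ± 3.93 CPM. Without Kit the oocyte markers stood at 41.6% of WT in sum. The fall of Jag2 to 34.4% and of Hes1 to 49.0% of WT stood beside those levels, and the part of oocyte number or oocyte RNA in either was not tested.

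The summed level of pregranulosa markers was 659 to 713 CPM in WT and 736 to 822 CPM in Hnrnpl-null. Kitl carried that difference, and without it the sums overlapped, at 587 to 630 CPM and 565 to 649 CPM. Of the 11 tested, Kitl, the ligand of Kit, was higher by edgeR and 10 were not called. Kitl rose from 78.4 ± 7.05 to 174 ± 4.02 CPM (edgeR adjusted p = 3.7e-05), and Wt1 was at 211 ± 14.0 and 207 ± 19.2 CPM. Endothelial markers, which bear on Dll4, Notch4 and the Hey genes, had a summed level of 207 to 248 CPM in WT and 182 to 216 CPM in Hnrnpl-null. Of the 14, 0 were called by edgeR, while DESeq2 and limma-voom each called 3. An unadjusted edgeR p below 0.05 was held by 4, against 2746 of all 14849 genes tested. The fold change was negative in 13, and the median was -0.37. Cdh5, the endothelial cadherin, was at 30.8 ± 7.76 and 19.7 ± 2.10 CPM, and Kdr, a receptor for vascular growth factor, was at 80.8 ± 3.33 and 103 ± 1.99 CPM. The part of endothelial content in the fall of Dll4 was not tested.

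Markers of pericytes and smooth muscle, which bear on Notch3 and Heyl, summed to 217 to 268 CPM in WT and 237 to 258 CPM in Hnrnpl-null. Of these 10 markers, 0 were called by edgeR, 4 had an unadjusted p below 0.05, DESeq2 called 1 and limma-voom called 2. Their fold changes were negative in 5 and positive in 5. Acta2, smooth muscle actin, was at 61.4 ± 5.53 and 50.8 ± 5.85 CPM, and Pdgfrb, a growth factor receptor of pericytes, was at 45.7 ± 7.86 and 52.2 ± 7.92 CPM. Stromal markers summed to 4931 to 5339 CPM in WT and 7426 to 8446 CPM in Hnrnpl-null, with Col1a1, Col3a1 and Dcn higher, Gli1 lower and 6 of 10 not called. Col1a1 and Col3a1 made up most of that sum, and the other 8 summed to 423 to 439 CPM in WT and 478 to 518 CPM in Hnrnpl-null. Surface epithelium markers summed to 237 to 291 and 338 to 438 CPM, with Upk3b, Krt19 and Msln of 6 higher. Leukocyte markers summed to 58.5 to 64.9 CPM in WT and 590 to 733 CPM in Hnrnpl-null. Of 9 tested, 6 were higher, with Mpo, Ctsg and Elane among those 6. Without Mpo, a myeloid granule enzyme, the sums were 58.0 to 64.7 CPM and 191 to 212 CPM. Ctsg and Elane, still in those sums, were at 0.115 and 0.603 CPM in WT and at 33.5 and 32.4 CPM in Hnrnpl-null. Mpo, Ctsg and Elane had 22, 4 and 34 counts over the WT libraries and passed the filter on low counts through the Hnrnpl-null group. Their calls therefore add no separate evidence. Ptprc, Coro1a and Laptm5, also called higher, had 190, 176 and 518 counts over the WT libraries. The leukocyte markers Csf1r, C1qa and Lyz2 were tested and not called by edgeR (adjusted p of 0.091, 0.68 and 0.87). No marker list had a gene at 0 in all 6 libraries. What these shifts contribute to the Notch genes was not tested.

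**Figure D3:**
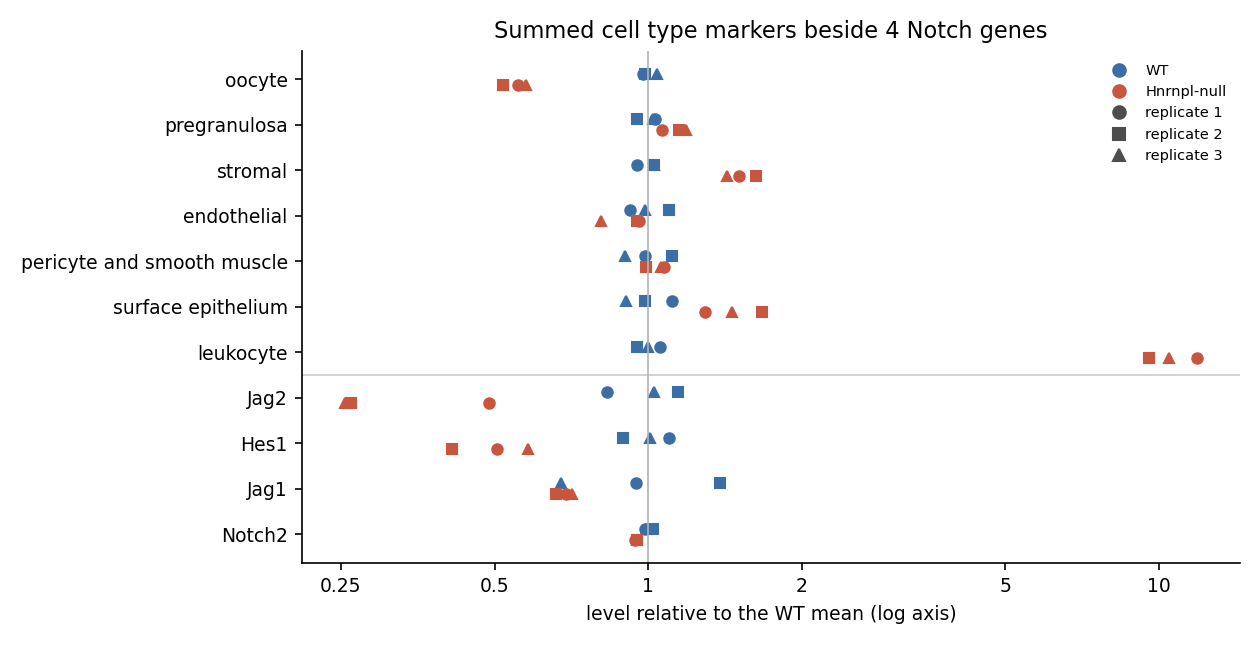
Summed CPM of 7 cell type marker lists (above the line) and CPM of Jag2, Hes1, Jag1 and Notch2 (below it), each divided by its WT mean, on a log axis, with 1 point per library (WT blue, Hnrnpl-null red) and the replicate number as the shape. Oocyte markers, Jag2 and Hes1 lie left of the WT points in all 3 Hnrnpl-null libraries, while Notch2 lies close to 1.

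The genes whose pattern over the 6 libraries was most like that of each member were ranked among 10086 genes, by the root mean square difference of log2 CPM centred on its mean over the libraries. For Jag2 they included Dmrta1 and Mov10l1, at 0.22 and 0.23. Mov10l1, an RNA helicase of the germ cell piRNA pathway, went from 101 to 38.0 CPM on average. For Hes1 they were Grpel2, Cpeb1 and 1700001L05Rik, at 0.090, 0.094 and 0.099. Grpel2 went from 12.2 to 5.82 CPM and 1700001L05Rik from 33.8 to 15.6 CPM. Cpeb1, an RNA-binding protein of oocyte messenger translation, went from 47.4 to 22.5 CPM. For Jag1 they were C130074G19Rik, Zfp956 and Sema4g, at 0.12, 0.13 and 0.14. For Notch2 they were Nfya, Igf1r and Zzef1, at 0.026 to 0.028, as for any gene that varies little. The libraries share their depth and scaling, and the likeness over 6 libraries in 2 groups is a description. It does not show in which cells Jag2 or Hes1 is made.

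Jag2 and Hes1 were called under all of 19 other settings of the fit but 1, library totals with no scaling factors, and kept their direction in all 19. Nrarp was called in 6 of the 19. Of the other pathway genes called as reported, Neurl3 was called in 18 of the 19, Dll4 in 16, Tle2 in 13 and Fbxw7 in 9.

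**Figure D4:**
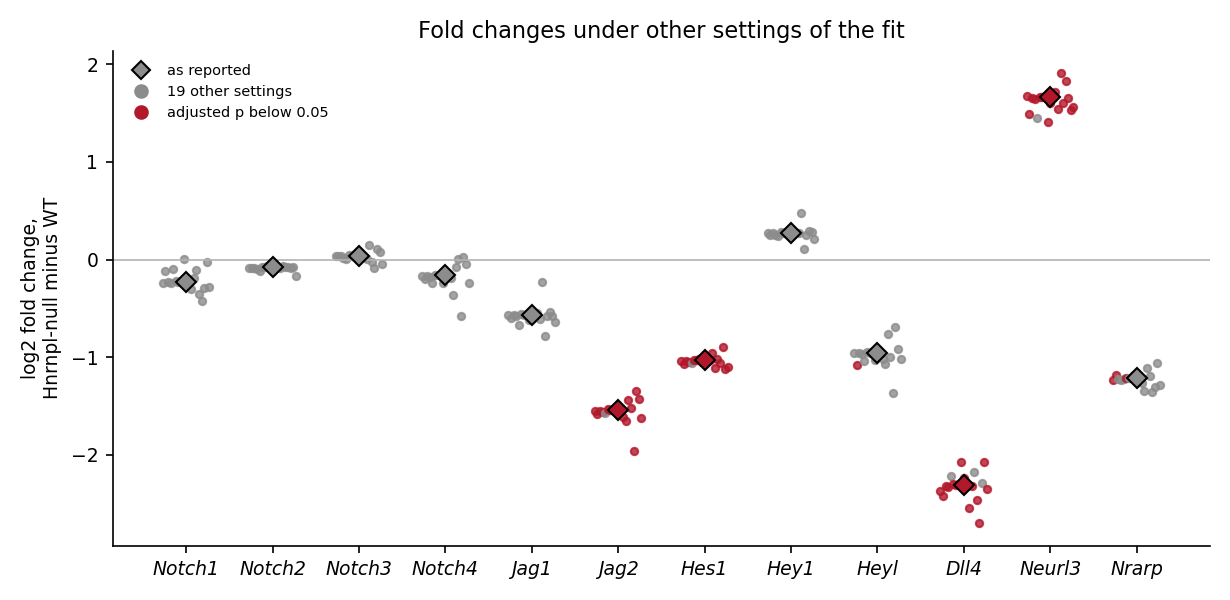
Log2 fold change (Hnrnpl-null minus WT) of 12 Notch pathway genes as reported (diamond) and under 19 other settings of the fit (points), with red for an adjusted p below 0.05. Fbxw7 and Tle2 are not drawn. Jag2 ran from -1.96 to -1.35 and Hes1 from -1.12 to -0.90, and each was called in 18 of the 19.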

How the data were processed

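The authors deposited raw gene counts in 1 table, which per the file headers also holds exon positions and exonic length in bases. The submitters' processing notes name featureCounts 2.0.6, HISAT2 2.2.1, STAR 2.7.11a and mm10, without saying what each did. Annotation and strand setting, and how multiply mapped reads were treated, are not given in the sources. Even numbers made up 93.4% to 98.4% of the counts from 1 to 20 in a library, as when both mates are counted.

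The test was edgeR 4.0.16 (R 4.3.3), with filterByExpr, TMM scaling, glmQLFit and a two-sided glmQLFTest, on all 6 libraries, with genotype as the only term and Benjamini-Hochberg adjustment over 14849 genes. The script was tested on simulated data. Standard errors come from the F statistic. DESeq2 1.42.0, limma 3.58.1 (voom), other scalings and filters, and fits without single libraries were run beside it. Replicates of a group differed by more than counting noise (a chi-square of at least 5.46 per degree of freedom). The genes and lists were chosen with earlier results of these data known. The genes named are the 10 members, every called pathway gene and the 2 with the highest level per kilobase in each role, called markers and the 2 most abundant in each list, and for Jag1, Notch2 and each called member the 3 genes nearest in pattern with a mean CPM of at least 5. Not every called marker is described, and 1 of the genes nearest in pattern is not reported here.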

Additional observations from a re-analysis of the deposited data

How the results depend on the processing

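Jag2 and Hes1 were called in 18 of 19 other settings, 18 planned and 1 added after seeing the data (totals without the Rn45s row). The exception was library totals with no scaling factors and Rn45s kept in the totals: 4 genes were called in all, 0 of the 10 Notch genes and 0 of the 59 others. The 663 calls over all genes (397 higher, 266 lower) became 1086 with DESeq2, 1273 with limma-voom, 1104 with no filter on low counts, and 255 (123 higher, 132 lower) with totals after leaving out Rn45s. Leaving out 1 library gave 249 to 853 calls over all genes, 2 to 2 among the 10 and 1 to 4 among the other pathway genes, with a median log2 fold change of the members of -0.57 (without WT replicate 3) to -0.062 (without Hnrnpl-null replicate 3). The 4 calls among other pathway genes became 8 with limma-voom and 2 with totals after leaving out Rn45s. With the replicate block 444 genes were called in all, with Jag2 and Hes1 among them, and 3 other pathway genes, Fbxw7 being lost (adjusted p = 0.089). Same-numbered libraries did not deviate together (r of -0.12, 0.09 and -0.09). Hnrnpl-null replicate 3 deviated against the other libraries of its group (r of -0.81 with each). Such deviations could hide a weaker likeness by number, so whether the numbers pair libraries was not settled. Heyl was called by limma-voom only. The direction of Notch1 turned without both libraries richest in Rn45s (0.008), and Notch3 and Notch4 changed direction in some settings, without being called in any. Low counts limit what can be said of Hey2, Notch4, Heyl and Dll4. The causes of these differences were not tested.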

Other observations

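Several Notch pathway genes did not pass the filter on low counts. Dner, a membrane protein with Delta-like repeats, had 14, 30 and 4 counts in WT and 4, 0 and 0 in Hnrnpl-null, so it was 48 counts against 4 over the groups. It was singled out after its values were seen. Dll3 had 14 counts over the WT libraries and 11 over the Hnrnpl-null libraries, and Hes5, a Notch target of neural progenitors, had 16 and 14.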
